A study of Rattus norvegicus with 24 samples.

Results

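Genes of 4 enzymes that dispose of reactive oxygen species or their products, Sod2, Cat, Hmox1 and Nqo1, were followed in the heart septum of rats. They were chosen by Ensembl rat gene ID and are 4 of the 30562 genes counted. Each ID lay on the chromosome given for its symbol, and all 4 genes passed the filter on low counts that left 17347 genes to be tested. The files carry IDs without symbols, so the symbols are those attached to the IDs when the genes were chosen.

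Sod2 encodes the manganese superoxide dismutase of the mitochondrial matrix, which turns superoxide into hydrogen peroxide. Cat encodes catalase, a mainly peroxisomal enzyme that breaks hydrogen peroxide down to water and oxygen. Hmox1 encodes the inducible heme oxygenase, which opens heme to biliverdin, iron and carbon monoxide, and Nqo1 encodes a cytosolic quinone reductase that uses NADH or NADPH. Hmox1 and Nqo1 are textbook targets of the transcription factor NRF2, which binds antioxidant response elements. In the heart, reperfusion after ischemia is a known source of reactive oxygen species, and the mitochondria-rich cardiomyocyte is a main site of their production.

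The data came from 24 Sprague-Dawley rats, in 4 groups of 6, whose septum was taken at day 28 after cardiac ischemia-reperfusion and sequenced as mRNA. The vehicle group kept its brown adipose tissue (BAT, fat that burns fuel for heat), and vehicle was delivered into the cerebral ventricles. The leptin group also had intact BAT and received leptin, an adipocyte hormone acting on the brain, by the same route. The ablation group received leptin after ablation of BAT, and the denervation group received leptin after sympathetic denervation of BAT. All 4 groups had the cardiac injury and the ventricular cannula, and none joined a BAT operation with vehicle, so what an operation does without leptin was not measured. Age, sex and the method of ablation are not given in the sources used here. Each library carries the number of a separate rat, and p-values therefore include the spread between animals. The tissue label was not checked against markers of heart cells, since such a check needs gene symbols.

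Libraries held 71587993 to 122910706 reads assigned to genes, of which mitochondrially encoded genes took 23.1% to 45.9%. By group the mitochondrial share was 35.2% ± 1.17 (SD, n = 6) with vehicle, 33.5% ± 5.35 with leptin, 34.7% ± 8.24 after ablation and 26.7% ± 1.97 after denervation. Its part in the differences between groups was not tested with a term in the model. Rats carry numbers in the labels, and the 7 with the highest numbers gave libraries that stand apart from the other 17. These high-numbered rats comprise 3 vehicle, 1 leptin, 1 ablation and 2 denervation rats, and the others are called low-numbered. The labels do not say what the numbers mark, and the boundary is known from a principal component of these same libraries, so differences between the sets are given as a description with no test. Levels below are CPM, counts scaled to a common library total after TMM, a factor per library that holds most genes equal. Levels compared between genes are RPKM, the same values per kilobase of exon.

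On the mRatBN7.2 assembly, Sod2 (ENSRNOG00000019048) spans chromosome 1 from 47636528 to 47645189 on the minus strand, with 5 exon blocks and an exonic length of 3881 bp. Cat (ENSRNOG00000008364) spans chromosome 3 from 89842399 to 89874478 on the minus strand, with 14 exon blocks and 2380 bp. Hmox1 (ENSRNOG00000014117) spans chromosome 19 from 13467244 to 13474079 on the plus strand, with 5 exon blocks and 1546 bp. Nqo1 (ENSRNOG00000012772) lies on the same chromosome from 35295573 to 35310557 on the minus strand, with 7 exon blocks and 1694 bp. No other annotated gene overlapped any of these spans, and the counts are summed over the exons of a gene.

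The 250 bases upstream of the start site are shown for the 3 of 4 genes that the RefSeq promoter table holds (GRCr8 assembly), because the genes are known for regulation through short promoter elements. All are on the minus strand and are written 5′ to 3′ towards the start site. Capitals mark matches, on either strand, to the core of the antioxidant response element (TGACNNNGC), the GC box (GGGCGG), the CCAAT box (CCAAT) and the TATA box (TATAAA), and no matches overlap. The span is chr1:50050169-50050418 for Sod2, chr3:110329527-110329776 for Cat and chr19:52220268-52220517 for Nqo1.
Sod2: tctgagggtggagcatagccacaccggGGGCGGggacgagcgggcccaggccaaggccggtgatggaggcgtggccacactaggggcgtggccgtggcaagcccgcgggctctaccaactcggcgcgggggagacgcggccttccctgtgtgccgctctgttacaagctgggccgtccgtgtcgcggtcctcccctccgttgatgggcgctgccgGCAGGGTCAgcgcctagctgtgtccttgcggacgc
Cat: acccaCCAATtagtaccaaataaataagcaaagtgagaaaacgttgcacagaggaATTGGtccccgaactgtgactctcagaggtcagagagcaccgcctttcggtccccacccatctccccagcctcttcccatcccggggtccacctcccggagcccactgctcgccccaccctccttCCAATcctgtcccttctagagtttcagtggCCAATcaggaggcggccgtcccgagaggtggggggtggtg
Nqo1: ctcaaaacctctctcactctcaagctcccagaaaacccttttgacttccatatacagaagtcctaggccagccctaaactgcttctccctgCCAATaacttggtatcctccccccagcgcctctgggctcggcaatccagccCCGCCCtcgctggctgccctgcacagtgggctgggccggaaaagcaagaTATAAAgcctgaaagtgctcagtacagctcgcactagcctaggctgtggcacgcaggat
The Sod2 sequence had a GC content of 71.6%, against a median of 51.2% over 33469 promoters, and held 1 GC box at -223 to -218 and 1 response element core, on the reverse strand, at -35 to -27. Cat, with a GC content of 58.8%, held 4 CCAAT boxes and no match to the other elements. Nqo1, at 56.4%, held 1 CCAAT box at -159 to -155, 1 GC box on the reverse strand at -108 to -103 and 1 TATA box at -59 to -54. Among all promoters of the same length, 10.1% held the response element core, 30.5% the GC box, 34.02% the CCAAT box and 12.9% the TATA box. These are matches of letters in a short window, and elements farther upstream were not searched.

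Per length, Sod2 and Cat were abundant septal messages and Hmox1 and Nqo1 were of middle abundance. Mean levels over the 24 libraries were 67.7 RPKM for Sod2, 52.6 RPKM for Cat, 12.9 RPKM for Hmox1 and 5.80 RPKM for Nqo1. These levels exceeded those of 96.6%, 95.5%, 78.9% and 61.3% of the tested genes, in the same order. Within a library the RPKM level of Sod2 was above that of Cat in 18 of 24 rats, by 1.18-fold on average, so the order of this pair was not the same in every rat. Cat was above Hmox1 in 24 of 24, and Hmox1 above Nqo1 in 21 of 24. In bulk tissue, a lower level can mean fewer cells of the expressing type or less RNA per cell, and these cannot be told apart.

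None of the 4 genes passed the test between any groups in the comparisons as designed. Across the 24 differences (4 genes in 6 pairs of groups), 0 passed an adjusted p of 0.05 in edgeR's quasi-likelihood test, 1 had an unadjusted p below 0.05, and DESeq2 gave 0 and 2. In the test for any difference among the 4 groups the edgeR adjusted p was 0.499 for Sod2, 0.686 for Cat, 0.393 for Hmox1 and 0.675 for Nqo1. That overall test called 0.0692% of all genes. The test called 0.674% of genes in leptin against vehicle and 3.03% in ablation against leptin. It called 0% in the other 4 pairs, where the genes at an unadjusted p below 0.05 numbered 2836 (denervation against leptin), 1892 (ablation against vehicle), 348 (denervation against vehicle) and 778 (ablation against denervation). In these 4 pairs DESeq2 called 511, 21, 0 and 0 genes. For no gene and no pair did the CPM ranges of the groups separate, a separation found over all genes in 1.46% for leptin against vehicle, 0.911% for ablation and 0.951% for denervation against leptin, 0.242% for ablation and 0.306% for denervation against vehicle, and 0.19% for ablation against denervation. The comparisons share groups and are not independent of each other.

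**Figure D1:**
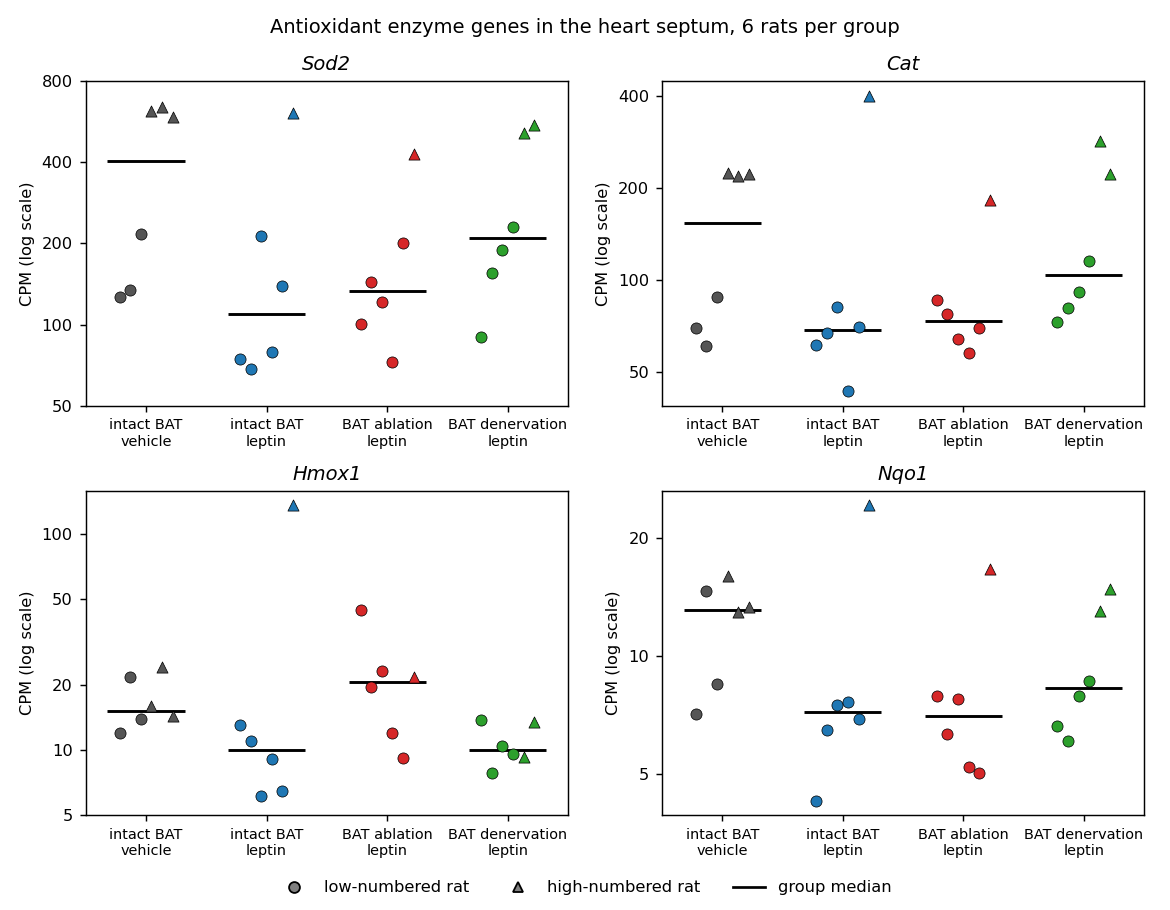
Level of each gene in CPM (log axis) in the 6 rats of each group, circles for the 17 low-numbered rats, triangles for the 7 high-numbered rats, and a bar at the group median. For Sod2 and Cat every triangle lies above every circle, and the leptin rat shown as a triangle is the highest of all for Cat (399 CPM), Hmox1 (135.4 CPM) and Nqo1 (24.3 CPM).

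Sod2 spread widely within every group. The lowest, median and highest level was 127, 403 and 642 CPM with vehicle, 68.5, 109 and 607 CPM with leptin, 72.9, 133 and 430 CPM after ablation, and 89.7, 209 and 549 CPM after denervation. Group means were 388 ± 253 CPM (SD, n = 6) with vehicle, 287 ± 194 CPM after denervation, 197 ± 208 CPM with leptin and 178 ± 131 CPM after ablation, and no neighbours in this order differed beyond their spread. The order follows the number of high-numbered rats in the groups (3, 2, 1 and 1). The log2 difference was -0.98 ± 0.60 (SE, 95% interval -2.22 to 0.26, edgeR adjusted p = 0.312) for leptin against vehicle and -1.12 ± 0.60 (interval -2.36 to 0.12, edgeR adjusted p = 0.471) for ablation against vehicle. For denervation it was -0.43 against vehicle and 0.54 against leptin, for ablation -0.14 against leptin and -0.69 against denervation.

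Cat varied less within the low-numbered rats than Sod2, and its high values fell in the same animals. Its lowest, median and highest level was 60.6, 153 and 223 CPM with vehicle, 43.2, 68.4 and 399 CPM with leptin, 57.3, 73.2 and 182 CPM after ablation, and 72.9, 103 and 285 CPM after denervation. All 4 ranges overlapped. Means were 147 ± 81.5 CPM (SD, n = 6) with vehicle, 144 ± 87.7 CPM after denervation, 120 ± 137 CPM with leptin and 89.4 ± 46.6 CPM after ablation. The Cat difference farthest from 0 was ablation against vehicle, at -0.71 ± 0.52 on the log2 scale (interval -1.78 to 0.35, edgeR adjusted p = 0.519), and leptin against vehicle was -0.29 ± 0.51 (interval -1.35 to 0.78, edgeR adjusted p = 0.743).

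Hmox1 was low in most rats and very high in 1. With leptin, 5 rats lay between 6.15 and 13.0 CPM and replicate 6 reached 135.4 CPM. The lowest, median and highest level was 11.9, 15.1 and 24.1 CPM with vehicle, 9.18, 20.6 and 44.4 CPM after ablation, and 7.83, 10.0 and 13.7 CPM after denervation. The leptin mean of 30.2 ± 51.6 CPM (SD, n = 6) was therefore the highest of the 4 while the leptin median of 10.0 CPM was close to that of the denervation group. Denervation against leptin was -1.49 ± 0.61 on the log2 scale (interval -2.74 to -0.24). This was the single difference with an unadjusted p below 0.05 (0.0217), and its edgeR adjusted p was 0.237. Ablation against denervation was 1.01 ± 0.60 (interval -0.23 to 2.25, edgeR adjusted p = 0.890), and ablation against leptin was -0.48 ± 0.59 (edgeR adjusted p = 0.745).

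Nqo1 had the lowest level of the 4 and, in the comparisons as designed, the smallest standard errors. The lowest, median and highest level was 7.14, 13.1 and 16.0 CPM with vehicle, 4.29, 7.21 and 24.3 CPM with leptin, 5.04, 7.06 and 16.7 CPM after ablation, and 6.08, 8.28 and 14.8 CPM after denervation. Ablation against vehicle was -0.57 ± 0.37 on the log2 scale (interval -1.33 to 0.20, edgeR adjusted p = 0.498). Leptin against vehicle was -0.35 ± 0.37 (interval -1.11 to 0.42, edgeR adjusted p = 0.561), an interval that includes both a fall past 2-fold and a rise. Denervation against leptin was 0.00 ± 0.37 (interval -0.76 to 0.76).

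Read as a set of 4, the median log2 difference of the genes was -0.32 in leptin against vehicle, -0.64 in ablation against vehicle, -0.39 in denervation against vehicle, -0.32 in ablation against leptin, -0.46 in ablation against denervation and 0.13 in denervation against leptin. The same signed median over all tested genes, which TMM scaling holds near 0, was -0.026, 0.029, -0.0094, -0.022, 0.0088 and 0.016. Their median absolute difference, not a like measure, was 0.41, 0.33, 0.18, 0.31, 0.24 and 0.34. Hmox1 went the other way in leptin against vehicle (0.83), ablation against vehicle (0.35), ablation against denervation (1.01) and denervation against leptin (-1.49). Vehicle holds 3 high-numbered rats, denervation 2, leptin and ablation 1 each, and these medians take no account of that. The 4 values of a pair come from the same rats and were not tested as a set.

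The levels of Sod2 and Cat followed the rat-number sets. Sod2 was 564 ± 73.4 CPM (SD, n = 7, range 430 to 642) in the high-numbered rats and 139 ± 54.6 CPM (n = 17, range 68.5 to 229) in the others, a 4.07-fold ratio of means. Cat was 250 ± 72.4 CPM (range 182 to 399) against 73.8 ± 16.3 CPM (range 43.2 to 115), a ratio of 3.39. For both genes every high-numbered rat, whatever its group, lay above every low-numbered rat, as 18.1% of all tested genes did. A further 10.7% of genes separated the other way.

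Nqo1 was 15.9 ± 3.98 CPM (SD, n = 7) in the high-numbered rats and 7.33 ± 2.25 CPM (n = 17) in the others, and 1 low-numbered rat, vehicle replicate 2 at 14.7 CPM, reached into the upper range. Hmox1 overlapped broadly, with 12 of 17 low-numbered rats at or above the lowest high-numbered one. Its mean of 33.5 ± 45.2 CPM in the high-numbered rats rests on leptin replicate 6, the other 6 lying at 9.31 to 24.1 CPM. With the groups in the model, the log2 difference between the sets was 1.93 ± 0.21 (SE) for Sod2, 1.76 ± 0.14 for Cat, 1.204 ± 0.41 for Hmox1 and 1.07 ± 0.16 for Nqo1. In size these exceeded 91.9%, 89.0%, 73.9% and 68.4% of all tested genes, whose median absolute difference was 0.71. The Hmox1 difference includes leptin replicate 6 and was not fitted without that rat. The Hmox1 medians were 15.9 CPM in the high-numbered and 11.9 CPM in the low-numbered rats.

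**Figure D2:**
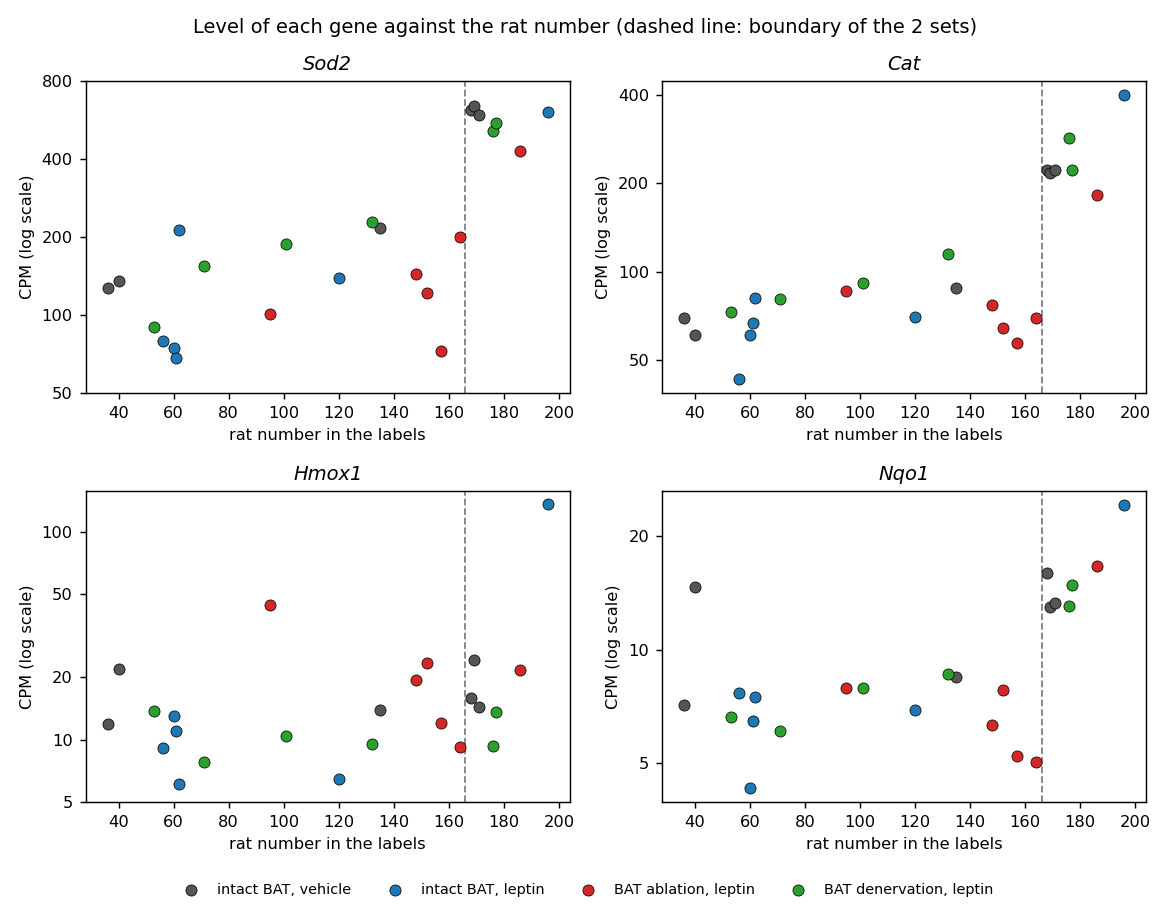
Level of each gene in CPM (log axis) against the rat number in the labels, coloured by group, with a dashed line at the boundary between the 2 sets. Sod2 steps from at most 229 CPM to at least 430 CPM at the boundary and Cat from at most 115 CPM to at least 182 CPM, while Hmox1 shows 1 rat at 135.4 CPM and no step.

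The sets also differed in total reads and in the length gradient defined here, whose part in the difference between the sets was not tested. Total reads were 96576084 to 122910706 in the high-numbered rats and 71587993 to 108084377 in the others. The length gradient of a library, which sorts genes by exonic length into 5 classes and subtracts the median log2 CPM (centred per gene) of the shortest class from that of the longest, was 0.34 ± 0.10 (SD, n = 7) against -0.17 ± 0.16 (n = 17), so that long genes read higher in the high-numbered rats. The mitochondrial share was 31.6% ± 3.91 against 32.9% ± 6.57. By exonic length Sod2 was longer than 69.5% of tested genes, Cat than 40.2%, Nqo1 than 23.6% and Hmox1 than 19.9%.

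A term for the rat-number set in the model narrowed the intervals of all 4 genes and brought no call. It moved leptin against vehicle to -0.39 ± 0.28 (interval -0.97 to 0.19, edgeR adjusted p = 0.397) for Sod2, which was -0.98 as designed, and to 0.092 ± 0.19 (interval -0.29 to 0.48) for Cat, where the sign changed. For Nqo1 it gave -0.18 ± 0.22 and for Hmox1 0.56 ± 0.51. Ablation against vehicle fell in size to -0.36 ± 0.28 for Sod2 and -0.02 ± 0.19 for Cat. With the term the test called 6.13% of all genes in leptin against vehicle, 18.6% in ablation against leptin, 6.65% in denervation against leptin and 0% in each of the other pairs, and none of the 4 genes in any of them. The test among the 4 groups called 10.3% of genes with the term, again without these 4. The boundary of the sets is known from these same libraries, and how far this alone narrows intervals or adds calls was not tested.

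**Figure D3:**
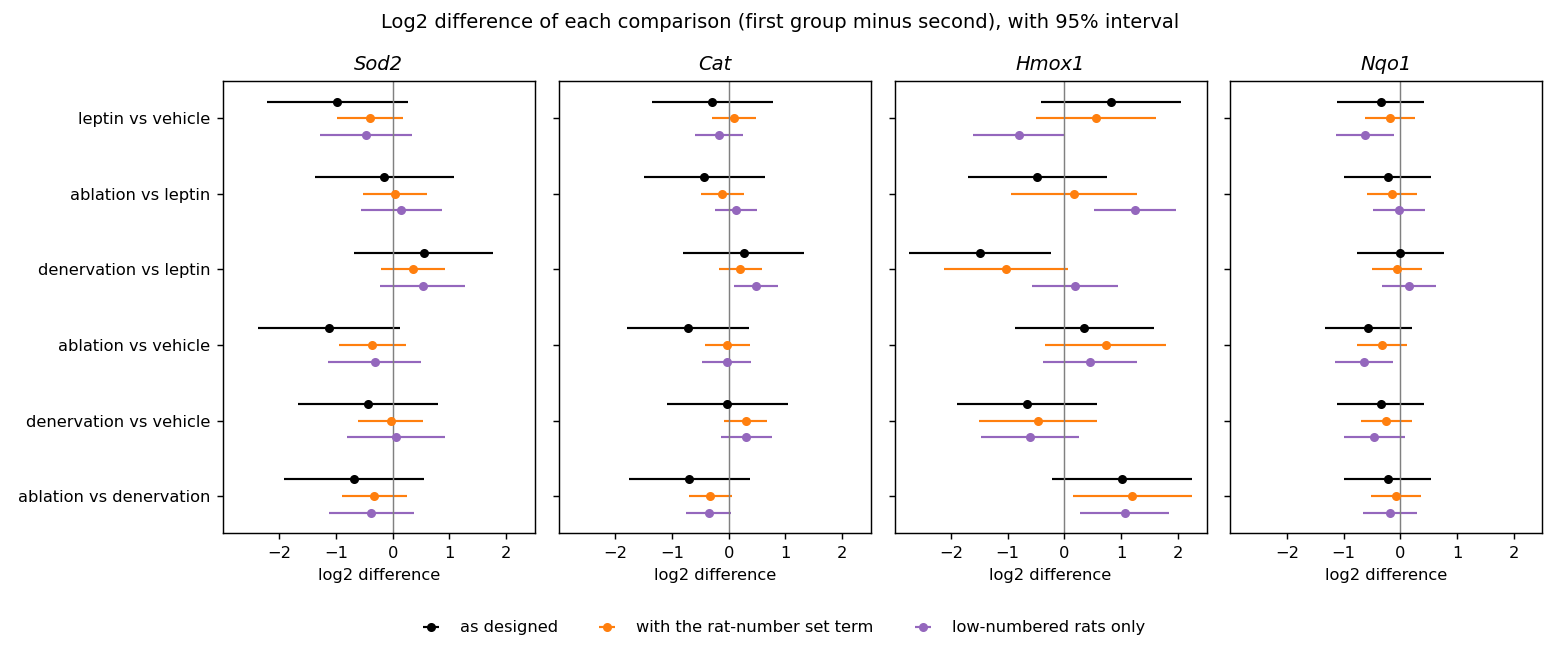
Log2 difference (first group minus second) with its 95% interval for each gene in the 6 pairs of groups, as designed (black), with the rat-number set term (orange) and in the low-numbered rats alone (purple). The intervals of Sod2 and Cat are shorter with the term than as designed, and Hmox1 in ablation against leptin turns from -0.48 as designed to 1.24 in the low-numbered rats.

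Within the 17 low-numbered rats, group means of Sod2 were 160 ± 50.1 CPM (SD, n = 3) with vehicle, 115 ± 61.7 CPM (n = 5) with leptin, 128 ± 48.4 CPM (n = 5) after ablation and 166 ± 59.1 CPM (n = 4) after denervation. Cat was 72.7 ± 14.0, 64.5 ± 14.1, 70.8 ± 11.1 and 90.0 ± 18.4 CPM in the same order. Denervation against leptin for Cat was 0.48 ± 0.19 (interval 0.09 to 0.87), with an edgeR adjusted p of 0.145. Nqo1 was 10.1 ± 4.02 CPM with vehicle and 6.57 ± 1.36 CPM with leptin, a log2 difference of -0.62 ± 0.24 (interval -1.13 to -0.11, edgeR adjusted p = 0.196). After ablation it was 6.46 ± 1.37 CPM, with a difference of like size from vehicle of -0.64 ± 0.24 (interval -1.15 to -0.13, edgeR adjusted p = 0.995). For Nqo1 the 3 vehicle rats had 7.14, 8.48 and 14.7 CPM, against 4.29 to 7.65 CPM with leptin and 5.04 to 7.93 CPM after ablation. The highest of these is vehicle replicate 2, and no fit within the low-numbered rats left it out. How far both Nqo1 differences rest on that rat was therefore not tested. The intervals given for Cat and Nqo1 lie on 1 side of 0 and the adjusted p does not pass. In the low-numbered rats the test called 0% of genes in leptin against vehicle and in ablation against vehicle, and 0.00559% in denervation against leptin. The test among the 4 groups called 0.727% and none of the 4 genes.

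In those same 17 rats Hmox1 was higher after ablation than with leptin and intact BAT. The 5 ablation rats had 44.4, 19.5, 23.3, 12.0 and 9.18 CPM, and the 5 leptin rats had 13.0, 11.0, 6.15, 9.10 and 6.48 CPM. The lower 2 ablation rats fell within the leptin range. The log2 difference was 1.24 ± 0.34 (interval 0.52 to 1.97, edgeR adjusted p = 0.0321), in a comparison that called 11.4% of all genes and 6.04% of all genes as higher. The call held in 3 of 10 fits that each left out 1 of these rats (edgeR adjusted p 0.00818 to 0.105). The difference stayed above 0 in all 10 fits, from 0.81 ± 0.28 to 1.43 ± 0.32. It was lowest without ablation replicate 1, the rat at 44.4 CPM. The Hmox1 call was lost without leptin replicates 1 to 4 (adjusted p 0.0616, 0.0690, 0.0523 and 0.0670), by the same edgeR test. There the difference was 1.41, 1.32, 1.13 and 1.24. It was also lost without ablation replicates 1 to 3 (edgeR adjusted p 0.105, 0.0540 and 0.0872), where the difference was 0.81, 1.28 and 1.21. In the 10 fits the test called 119 to 3423 genes, against 2033 with none left out. Hmox1 ablation against denervation, at 1.06 ± 0.37 (interval 0.28 to 1.83, edgeR adjusted p = 0.543), did not pass, in a comparison that called 0% of all genes. Its interval lies above 0. As designed, with all groups complete, this difference was 1.01 ± 0.60, with an interval that includes 0. It kept its sign in all 12 fits of that design that each left out 1 library, from 0.67 to 1.17.

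Leptin replicate 6, a high-numbered rat, held the highest Cat, Hmox1 and Nqo1 level of all 24 rats and set several directions. Without it Hmox1 in leptin against vehicle turned from 0.83 ± 0.60 to -0.90 ± 0.31 (edgeR adjusted p = 0.0414). Sod2 was then -1.76 ± 0.57 (edgeR adjusted p = 0.0318), Cat -1.19 ± 0.42 (0.0440) and Nqo1 -0.88 ± 0.31 (0.0414), in a fit that called 25.4% of all genes and 13.9% of all genes as lower. That fit compares 5 low-numbered leptin rats with 3 high-numbered and 3 low-numbered vehicle rats. Within the low-numbered rats alone the same contrast was -0.47 ± 0.39 for Sod2 (edgeR adjusted p = 0.527) and -0.17 ± 0.20 for Cat (0.684). For Hmox1 it was -0.79 ± 0.39 (interval -1.60 to 0.018, edgeR adjusted p = 0.270) and for Nqo1 -0.62 ± 0.24 (0.196). The test called 0% of all genes there.

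Leaving out the same rat changed the sign of ablation against leptin for all 4 genes. Without it Hmox1 was 1.25 ± 0.32 higher after ablation (edgeR adjusted p = 0.0272), where 5.91% of all genes were called. Sod2 moved from -0.14 to 0.63, Cat from -0.43 to 0.47 and Nqo1 from -0.22 to 0.31, with edgeR adjusted p of 0.489, 0.498 and 0.541. The Sod2 sign also changed without ablation replicate 4, to 0.017. Hmox1 in denervation against leptin went from -1.49 to 0.23 ± 0.31 (edgeR adjusted p = 0.622), where 3.69% of genes were called. In the test among all 4 groups the edgeR adjusted p of Hmox1 became 0.0474, with 3.69% of genes called. Without leptin replicate 6 the leptin group holds 5 low-numbered rats. Ablation then still holds 5 low-numbered and 1 high-numbered rats, and denervation 4 and 2. Within the low-numbered rats alone ablation against leptin was 0.15 for Sod2, 0.13 for Cat and -0.02 for Nqo1.

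**Figure D4:**
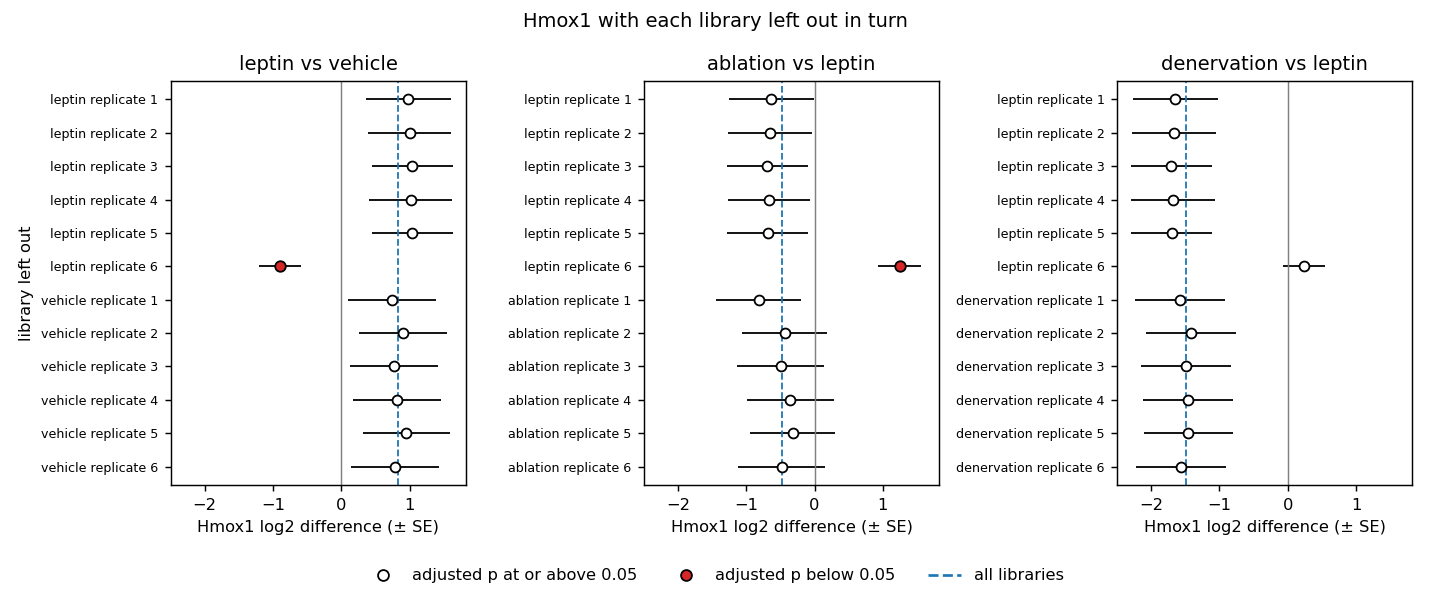
Hmox1 log2 difference (first group minus second, with its SE) when each library of a comparison is left out in turn, filled where the edgeR adjusted p is below 0.05, with a dashed line at the value from all libraries. Leaving out leptin replicate 6 moves leptin against vehicle from 0.83 to -0.90, ablation against leptin from -0.48 to 1.25 and denervation against leptin from -1.49 to 0.23, and no other library changes a sign.

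In the low-numbered rats Sod2 and Cat varied together. Correlations of log2 CPM were taken within each rat-number set, over 12 relations in all. In the 17 low-numbered rats Sod2 and Cat had a Pearson r of 0.69 and a Spearman rho of 0.74 (permutation test, adjusted p = 0.0166 and 0.0120), and r was 0.69 without the 2 rats farthest from the Sod2 median. Sod2 and Hmox1 had an r of -0.26, and Cat and Hmox1 an r of 0.01. In the 7 high-numbered rats Sod2 and Cat had an r of 0.36 and a rho of 0.14 (exact permutation test, adjusted p = 0.635 and 0.840), and r was 0.097 without 2 rats. There Hmox1 and Nqo1 had an r of 0.88 (exact permutation adjusted p = 0.448), which was -0.032 without leptin replicate 6 and denervation replicate 5. Only Sod2 with Cat in the low-numbered rats passed an adjusted p of 0.05, and the other 11 relations, which include the same pair in the high-numbered rats, did not. The low-numbered rats span 4 groups, so a difference between groups adds to these values. In the same rats 239 genes had an r above 0.9 with Sod2, so an r of 0.69 is not particular to Cat.

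Over the same 17 rats no relation of a gene to a library feature passed adjustment over 8 relations. The r with the length gradient was -0.49 for Sod2, -0.52 for Cat, -0.43 for Hmox1 and -0.53 for Nqo1 (permutation adjusted p from 0.0910 to 0.120). Spearman rho was -0.41, -0.52, -0.43 and -0.55 in the same order. Without the 2 rats of extreme gradient, r was -0.24, -0.44, -0.61 and -0.21. With the mitochondrial share r was -0.28, -0.52, -0.054 and -0.41 in the same order, and rho -0.20, -0.53, 0.11 and -0.49. Without the 2 rats of extreme share r was -0.22, -0.42, 0.32 and -0.31, so the sign for Hmox1 rests on those rats.

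The gene most like each of the 4 was taken as the tested gene with the highest Pearson r of log2 CPM over the 17 low-numbered rats. For Sod2 it was ENSRNOG00000022980 on chromosome 8 (50944704 to 50954238, minus strand), with an r of 0.99 that was 0.97 in the 7 high-numbered rats, and 239 genes exceeded an r of 0.9 with Sod2. For Cat it was ENSRNOG00000010984 on chromosome 16, with an r of 0.92 (0.66 in the high-numbered rats). For Hmox1 the highest r was 0.89, with ENSRNOG00000006604 on chromosome 8, and it was -0.74 in the high-numbered rats. For Nqo1 it was 0.77, with ENSRNOG00000002775 on chromosome 13. These maxima over all tested genes are a description of the same libraries, with no test.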

How the data were processed

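The authors deposited 1 table of read counts per gene, which per the file headers came from featureCounts 2.0.6 with Ensembl 113 gene models (mRatBN7.2 assembly). The submitters' processing notes name STAR 2.7.10a, featureCounts 2.0.2, DESeq2 and R 4.4.1. Reads were 2 × 100 bp pairs, per the labels' protocols. Counts of 2 occur in 19013 cells and counts of 1 in 5161, as when both mates are counted, so values are reads and not fragments. No strand option is given. 5 count columns matching no sample listed were not used here.

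Genes passing filterByExpr were scaled by TMM and fitted with edgeR 4.0.16 (robust quasi-likelihood) in R 4.3.3, all 24 libraries in 1 model, with Benjamini-Hochberg adjustment over 17347 genes at 0.05. Log2 CPM used a prior count of 2. Intervals are 95% from the fitted SE. Correlations used 100000 permutations, or all of them for 7 rats. The model was tested on counts simulated with the spread fitted under the rat-number set term, with changes put into the leptin group. In leptin against vehicle the model as designed missed most of the 2-fold changes, and with the set term it missed fewer. Other comparisons were not simulated. An absent call is not read as no change. Alternatives were DESeq2 1.42.0, RLE scaling, no filter, no mitochondrial reads, a rat-number set term, low-numbered rats only, a replicate block, only the 12 libraries compared, and each library left out. Relations to library features, and leaving out libraries within the low-numbered rats, were added after seeing the data.

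The members, lists and rat-number boundary were chosen with earlier results of these data known. The rule for named genes was the 4 members and the 1 gene most like each. Lists of other antioxidant, heme, NADPH and cell type genes were written by symbol, and 0 of 30562 IDs could be paired with a symbol, so no list was run. Replicate numbers were not treated as a pairing, since the labels name nothing that rats of 1 number share and 24 of 36 same-number pairs passed the correlation asked of all. The numbers do run partly with the rat-number sets. Replicate 6 is a high-numbered rat in each of the 4 groups, and replicates 1 to 3 are low-numbered in each.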

Additional observations from a re-analysis of the deposited data

Results flagged for a closer look

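In 7 of 16 sets of 6 rats (4 genes in 4 groups), 1 rat stood apart from the other 5, the gap to the nearest rat exceeding 0.625 of the group's range (Dixon's 95% critical value). For values from 1 normal distribution about 1 in 20 such sets is flagged. These CPM values were not shown to be normal, and the 4 genes of a rat are not independent. The 7 flags are therefore a description and are not read against that rate. Leptin replicate 6 accounted for 4 of them, with 607 CPM of Sod2 (next highest rat 213), 399 CPM of Cat (next 81.6), 135.4 CPM of Hmox1 (next 13.0) and 24.3 CPM of Nqo1 (next 7.65). Ablation replicate 6 accounted for the other 3, with 430 CPM of Sod2 (next 200.5), 182 CPM of Cat (next 86.0) and 16.7 CPM of Nqo1 (next 7.93). Each is the single high-numbered rat of its group. Among the 7 high-numbered rats ablation replicate 6 had the lowest Sod2 and Cat levels, and the Hmox1 level of leptin replicate 6 lay above those of the other 6 (9.31 to 24.1 CPM).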

How the results depend on the processing

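Under 8 alternatives to the design as fixed, 173 of 192 differences of the 4 genes kept their sign and their side of the threshold, 18 changed sign and 1 gained a call with its sign kept (Sod2 under the replicate block). Of the 18, 1 also gained a call (Hmox1 in the low-numbered rats). No sign changed without the filter on low counts or without mitochondrial reads. The cause of the changes below was not tested. Nqo1 in denervation against leptin (0.00 as designed) was -0.0094 with RLE scaling and with DESeq2 and -0.0081 with only the 12 libraries compared. The rat-number set term turned ablation against leptin to 0.035 for Sod2 and 0.17 for Hmox1, Cat to 0.30 in denervation against vehicle and 0.092 in leptin against vehicle, and Nqo1 to -0.063 in denervation against leptin. Low-numbered rats only gave ablation against leptin 0.15 for Sod2, 0.13 for Cat and 1.24 for Hmox1 (edgeR adjusted p = 0.0321), denervation against vehicle 0.060 for Sod2 and 0.31 for Cat, and Hmox1 0.19 in denervation against leptin and -0.79 in leptin against vehicle. The replicate block gave Sod2 -1.15 (edgeR adjusted p = 0.0326, where 21% of genes were called) and Hmox1 -0.14 in leptin against vehicle, and 0.071 for Sod2 and 0.30 for Hmox1 in ablation against leptin, and it changed no other call of these genes. The numbers were not taken as a pairing, for which all 36 same-number pairs had to correlate past a set threshold. Of these 24 did, with a median r of 0.20 (range -0.34 to 0.73) against -0.0093 for different numbers, and 9 of 24 libraries were closest to their own number. Replicate 6 is a high-numbered rat in all 4 groups, so the replicate block and these correlations partly carry the rat-number sets. How large that part is was not tested. With each library left out in turn, leptin against vehicle ranged from -1.76 to -0.78 for Sod2, -1.19 to -0.11 for Cat, -0.90 to 1.04 for Hmox1 and -0.88 to -0.20 for Nqo1. Ablation against leptin ranged from -0.62 to 0.63 for Sod2, -0.77 to 0.47 for Cat, -0.82 to 1.25 for Hmox1 and -0.56 to 0.31 for Nqo1. Denervation against leptin ranged from -0.049 (without denervation replicate 5) to 1.16 for Cat, -1.70 to 0.23 for Hmox1 and -0.17 to 0.54 for Nqo1, and denervation against vehicle from -0.33 to 0.14 for Cat. The near-zero Nqo1 value turned without leptin replicates 1 to 5 or denervation replicates 5 and 6, and the Cat value against vehicle without vehicle replicates 4 to 6 or denervation replicates 1 to 4. Without ablation replicate 4, Sod2 in ablation against leptin was 0.017. The Hmox1 adjusted p among the 4 groups ranged from 0.0474 to 0.511, and in the low-numbered rats ablation against leptin for Hmox1 from 0.81 to 1.43. Genes called in leptin against vehicle numbered 117 as designed, 204 with RLE scaling, 1642 with DESeq2, 3 without the filter, 1063 with the set term, 0 in low-numbered rats only, 3635 with the replicate block, 6 with only the 12 libraries compared and 1 to 4454 with a library left out. For ablation against leptin these counts were 525, then 1356 with DESeq2, 234 without the filter, 3219 with the set term, 2033 in low-numbered rats only, 1021 with the block, 0 with 12 libraries and 7 to 1037 with a library left out. For denervation against leptin 0 became 511 with DESeq2, 1154 with the set term, 1 in low-numbered rats only, 512 with the block and up to 647 with a library left out. For ablation against vehicle 0 became 21 with DESeq2, 1 with the block and up to 2 with a library left out. The test among the 4 groups called 12 genes, then 34 with RLE scaling, 1366 with DESeq2, 3 without the filter, 19 without mitochondrial reads, 1787 with the set term, 130 in low-numbered rats only, 1665 with the block and 0 to 648 with a library left out. Leaving out the 2 rats farthest from the median turned r in the high-numbered rats to -0.55 for Cat and Hmox1, -0.58 for Cat and Nqo1 and -0.032 for Hmox1 and Nqo1, and in the low-numbered rats to -0.030 for Cat and Hmox1 and 0.32 for Hmox1 and the mitochondrial share. As CPM, not per length, the log2 ratio of Sod2 was 0.94 to Cat, 3.75 to Hmox1 and 4.47 to Nqo1. The lowest count of any of the 4 genes in a library was 427 reads.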
